A study of Mus musculus with 12 samples.

Results

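Genes for the proteins of the cytosolic ribosome were followed across 12 libraries from mouse fibroblast-like synoviocytes, the fibroblasts that line the joint, grown in culture. Members were chosen by gene symbol alone: Rpl or Rps, a number and at most one of the letters a, x or l, together with Rplp0, Rplp1, Rplp2 and Rpsa. The rule found 83 genes among the 53341 in the table, 51 of the large ribosomal subunit and 32 of the small. Of these, 80 reached a normalized count of 10 in 3 or more libraries and entered the tests, as did 18139 genes in all. All 32 small-subunit genes passed, and 48 of the 51 large-subunit genes. Rpl3l, Rpl6l and Rpl10l did not pass. The members that passed lie on 19 chromosomes, 14 of them on chromosome 7.

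The series asked which parts of the response of these cells to TNF, an inflammatory cytokine, depend on Sox4, Sox11 and Sox12, the transcription factors of the SoxC group. Libraries of poly(A) RNA were made in 4 groups of 3. All cells came from mice labelled SoxC and received an adenovirus: Ade5CMV-eGFP in the control and control_TNF groups, Ade5CMV-Cre in the SoxC_KO and SoxC_KO_TNF groups. The viral CMV promoter is active in most cell types and does not limit Cre to synoviocytes. Cells of the TNF groups were held for 16 h with 10 ng/mL of recombinant human TNF. The sources used here do not give the age of the mice, the parts of the genes removed by Cre, or whether a group's libraries were separate animals or cultures. The p-values therefore reflect only how far these libraries scatter, which may be technical. Each sample title ends in a number from 1 to 3, and one library of each group carries each number.

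The ribosome is built from a large and a small subunit, each of ribosomal RNA and many proteins, most of them present as a single copy. The small subunit reads the messenger RNA, and the large subunit joins amino acids and releases the chain through its exit tunnel. Messenger RNAs for these proteins commonly begin with a 5′ terminal oligopyrimidine (TOP) tract, a run of C and U bases directly at the cap through which growth signals control their translation together. Some of the proteins also have roles away from the ribosome, and fibroblasts of the joint lining make large amounts of secreted matrix and lubricant proteins on their ribosomes.

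RefSeq start regions (build GRCm38.p6) were found for 59 of the 80 members. The 8 members with the longest pyrimidine runs across the start are shown with Rpl19 and Rplp0, whose longest run does not cross it. The RefSeq start nearest to the gene start in the deposited data was used. It lay 1385 bases away for Rps10, 493 for Rpl35, 405 for Rpl15 and 336 for Rps18. For the others shown the distance was 0 to 91 bases. Each line gives 30 bases before the annotated start and 20 after it, 5′ to 3′ on the gene's strand, with the longest run of C and T in capitals.
Rpl7a (chr2:26910777-26910826, plus strand): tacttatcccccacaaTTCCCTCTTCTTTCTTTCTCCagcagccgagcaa
Rpl27a (chr7:109519165-109519214, plus strand): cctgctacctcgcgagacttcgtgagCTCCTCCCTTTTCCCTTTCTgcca
Rpl35 (chr2:39005112-39005161, minus strand): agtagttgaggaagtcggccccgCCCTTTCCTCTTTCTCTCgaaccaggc
Rpl15 (chr14:18270967-18271016, minus strand): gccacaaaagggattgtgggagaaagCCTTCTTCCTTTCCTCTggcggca
Rpl14 (chr9:120571487-120571536, plus strand): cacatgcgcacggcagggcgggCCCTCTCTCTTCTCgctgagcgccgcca
Rps10 (chr17:27635225-27635274, minus strand): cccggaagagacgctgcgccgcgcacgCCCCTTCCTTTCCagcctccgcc
Rpl28 (chr7:4792935-4792984, plus strand): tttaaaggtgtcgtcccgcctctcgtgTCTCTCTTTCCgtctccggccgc
Rps18 (chr17:33955646-33955695, minus strand): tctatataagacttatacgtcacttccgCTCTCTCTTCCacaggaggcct
Rpl19 (chr11:98026680-98026729, plus strand): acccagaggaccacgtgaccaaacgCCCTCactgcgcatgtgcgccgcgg
Rplp0 (chr5:115559437-115559486, plus strand): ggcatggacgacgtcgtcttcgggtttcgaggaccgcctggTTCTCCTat

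Pyrimidine runs were longer in the members than in genes at large. Within 25 bases of the annotated start the longest run of C and T had a median of 8 bases in the 59 members and 5 in 11843 genes with a promoter entry. A run of at least 8 bases was present in 30 members (50.8%) and in 18.8% of all genes. The run both reached that length and crossed the start in 15 members (25.4%) and in 3.69% of all genes. By subunit these were 9 of 36 large-subunit and 6 of 23 small-subunit members. The annotated start is not a mapped cap site in these cells, so a run on either side of it is a description of the sequence only.

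Short motifs were searched on both strands of the 300 bases from 250 before to 50 after the start. The ETS core CCGGAAG was present in 24 of 59 members (40.7%) and in 16.6% of all genes. The YY1 motif AAGATGGC was present in 4 members (6.78%, against 4.37%), namely Rpl13a, Rpl35a, Rps15a and Rps27. For NF-kB only 1 pattern was searched, which was found in 0 of 59 members and 1.71% of all genes. Sites that differ from this pattern were not counted. At so low a share among all genes, 0 of 59 cannot show that the members lack NF-kB sites. The SOX core AACAAAG was found in 1 member, Rpl22 (1.69%, against 3.85%). The E-box CACGTG (8.47% against 9.77%), the GC box GGGCGG (57.6% against 61.4%), CCAAT (32.2% against 38.4%) and TATAAA (10.2% against 7.93%) lay near the share of all genes. GGGCGG and CCAAT are short and are met often in any promoter.

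Summed normalized counts per library ran from 19.6 to 23.1 M, and depth was roughly estimated at 8.14 to 13.7 M read pairs. All 13 synoviocyte markers passed the filter. Liver transcripts were present in control_TNF number 2 and SoxC_KO_TNF number 1 (10 liver markers summed to 644 and 4505 normalized counts, 3.98 to 83.2 elsewhere). The first principal component (51.6% of the variance) had the 4 libraries numbered 3 at one end. Of 12 TNF response genes, 5 rose with TNF in control cells and 6 in SoxC_KO cells by limma at an adjusted p under 0.05, and 12 and 10 were called with the title number as a block. Sox4, Sox11 and Sox12 differed by -1.62, -1.29 and -0.25 (log2) between SoxC_KO and control and by -1.30, -1.60 and -1.19 with TNF, and none of them was called. Averaged over both treatments, all 3 had a limma unadjusted p under 0.05 (0.772% of all genes) and 0 were called. With the block 1 of the 3 was called for that average, the only call among 18139 genes.

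Ribosomal protein genes held between 1.79% and 3.82% of a library's summed normalized counts. In control cells the share was 1.84%, 1.81% and 3.46% in numbers 1, 2 and 3. In control_TNF it was 2.87%, 1.79% and 3.82%. In SoxC_KO it was 2.17%, 2.06% and 3.65%, and in SoxC_KO_TNF 1.99%, 2.14% and 3.11%. The library numbered 3 was the highest of its group in every case, and control_TNF number 1 was the highest of the other 8. Group means were 2.37% ± 0.941 (SD, n = 3), 2.83% ± 1.02, 2.63% ± 0.889 and 2.42% ± 0.608 in the same order, so the spread within each group exceeded the distances between group means. Large-subunit and small-subunit genes kept a near constant proportion, with a ratio of summed counts of 1.25 to 1.30 in the libraries numbered 3 and 1.32 to 1.35 in the others. In bulk RNA, fewer cells of a type and less RNA per cell cannot be told apart.

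**Figure D1:**
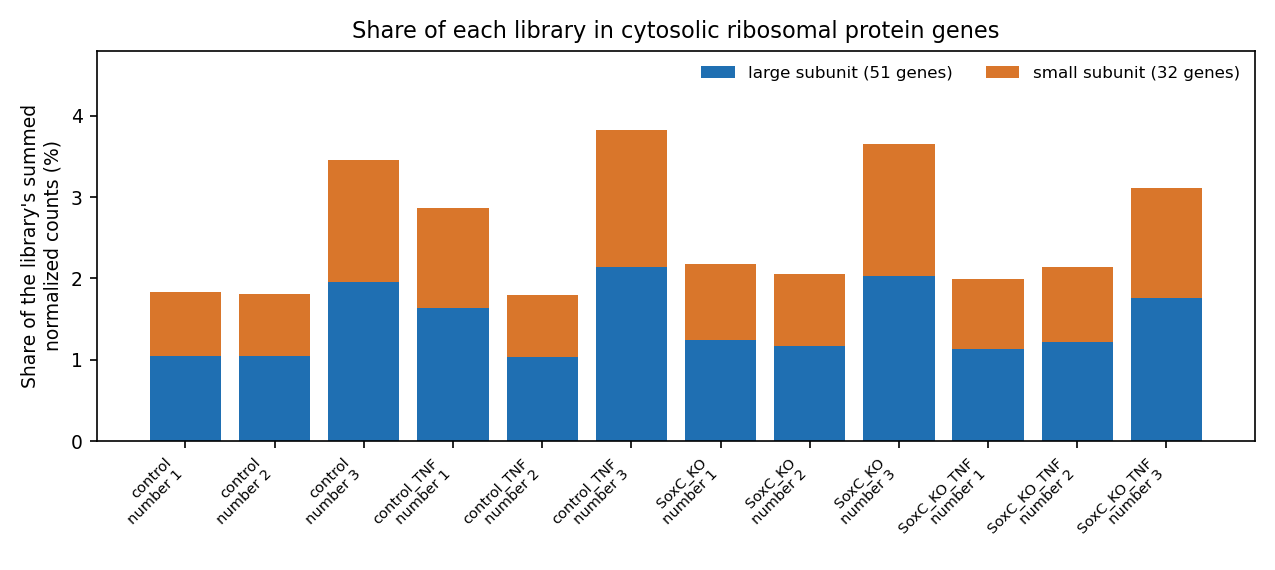
Share of each library's summed normalized counts held by the 51 large-subunit (blue) and 32 small-subunit (orange) genes, in percent, 1 stacked bar per library. The libraries numbered 3 stand at 3.46%, 3.82%, 3.65% and 3.11%, above all others, of which control_TNF number 1 is next at 2.87%.

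Levels per kilobase of transcript (mean normalized count over 12 libraries, 1 transcript per gene) were highest for Rplp1, an acidic protein of the stalk that recruits elongation factors, at 35396 per kb. Among small-subunit genes Rps2, at the entry of the messenger RNA channel, was highest at 22352 per kb. The median was 5466 per kb in the large subunit and 6966 in the small. Most of the proteins are present as a single copy per ribosome, while the levels of their transcripts covered a wide range. Reads shared with pseudogenes make single levels uncertain: 288 table entries are ribosomal protein pseudogenes, 89 of them past the filter, and they summed to between 9.49% and 10.7% of the members' sum in the 12 libraries.

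Of 7 paralogues with a standard copy among the members, 6 had levels far below that copy. Rpl39l, which replaces Rpl39 in the tunnel of ribosomes in male germ cells, had 43.3 per kb against 5039 per kb for Rpl39. Rps4l had 755 per kb against 13622 for Rps4x. Rpl10l, known from the testis, was listed at 0 in all 12 libraries, and Rpl10 had 1669 per kb. Rpl3l, known from striated muscle, was between 0 and 3.19 normalized counts per library, and Rpl3 had 3873 per kb. Rpl6l had 5.81 per kb against 10022 for Rpl6, and ranged from 0 to 10.4 normalized counts. Rpl32l had 129 per kb against 8802 for Rpl32, and ranged from 32.9 to 92.3 normalized counts. Rps27l, a p53-induced relative of Rps27, was the exception at 8730 per kb, against 2151 for Rps27. Rps27rt, a ribosomal protein gene outside the rule, had 1325 to 2626 normalized counts per library, against 452 to 1110 for Rps27. Reads shared between Rps27 and Rps27rt could not be resolved, so the level of Rps27 and its distance from Rps27l are uncertain.

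The members moved as a block from library to library. Over the 12 libraries the log2 level of a member correlated with the mean of the other members at a median Pearson r of 0.975. The value of r exceeded 0.9 for 76 of 80 members and for 2044 of 18139 genes (11.3%), most of them not members. With group means removed the median was 0.982. The exceptions were Rpl32l (r = 0.519), Rps29 (0.827), Rps15a (0.876) and Rpl29 (0.895). The points share libraries, scaling and depth, so these values describe the set and were not tested.

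**Figure D2:**
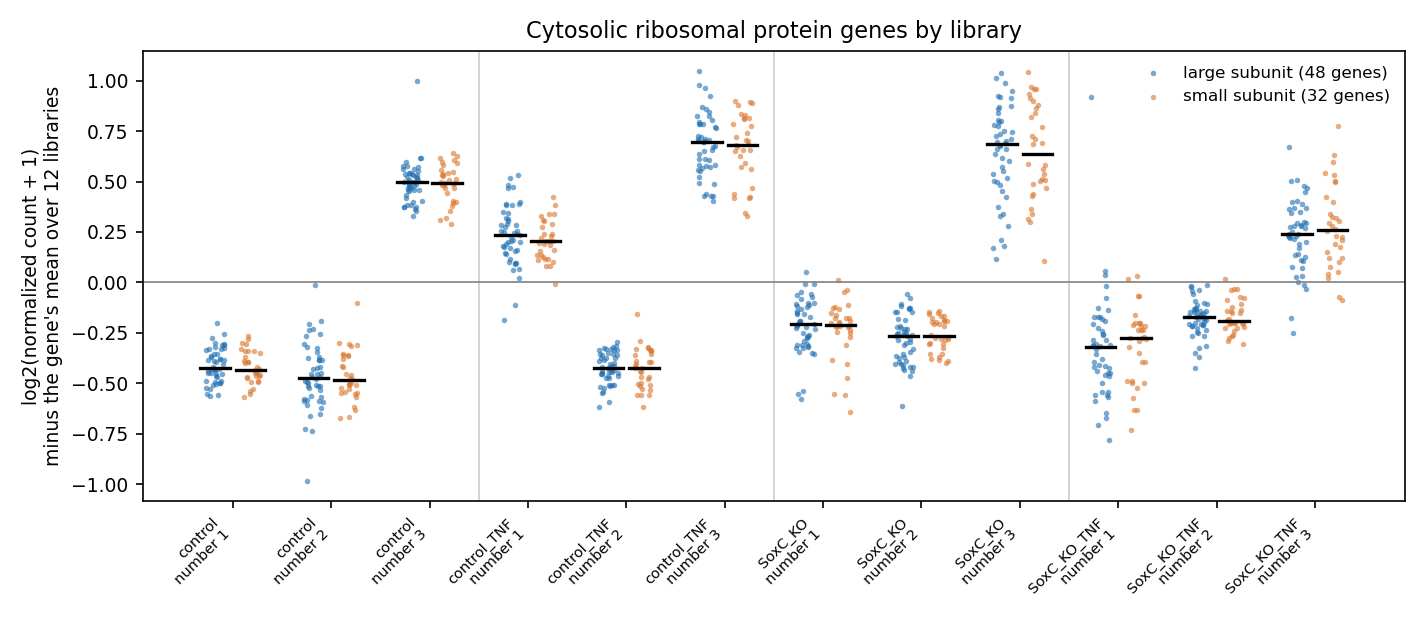
Level of each of the 80 members in each library, as log2(normalized count + 1) minus the gene's own mean over 12 libraries, with large-subunit genes in blue, small-subunit genes in orange and black bars for medians. Both subunits shift together: the large-subunit median is 0.50, 0.70, 0.69 and 0.24 in the libraries numbered 3 and 0.24 in control_TNF number 1, and between -0.47 and -0.17 in the other 7.

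TNF did not give a called change of any member in control cells. Rplp0, the scaffold of the stalk, had 14870, 14553 and 26417 normalized counts in control numbers 1, 2 and 3 and 20919, 14441 and 31870 in control_TNF. Both groups had their highest value in number 3 and their ranges overlapped, and the log2 difference was 0.25 (SE 0.36, limma adjusted p = 0.998). Rpl11, which with Rpl5 carries the 5S ribosomal RNA into the large subunit and binds Mdm2 when ribosome assembly fails, had 2345, 1897 and 4631 in control and 3978, 2153 and 6178 in control_TNF. Number 2 did not show the distance that number 1 did, and the log2 difference was 0.45 (SE 0.47, adjusted p = 0.998). Rps16, highest of the small subunit in this comparison, differed by 0.44 (SE 0.44), and Rpl39l, highest of all, by 0.50 (SE 0.56) at 33.5 ± 26.3 (SD, n = 3) against 44.1 ± 22.8 normalized counts.

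Across the members, the median log2 difference with TNF in control cells was 0.28 in the large subunit and 0.30 in the small, against -0.02 for all genes, with a median SE of 0.37. All 80 values lay above 0, from Rpl32l (0.01) to Rpl39l (0.50). limma called 0 of 80 members, and 0.320% of all genes, at an adjusted p under 0.05. At an unadjusted p under 0.05 the counts were 0 of 80 and 4.21%. No member had groups that did not overlap, while 4.60% of all genes were higher and 4.11% lower with no overlap. With the title number as a block, 0 members were called (1.71% of all genes) and 14 had an unadjusted p under 0.05 (12.2% of all genes). The median rested on single libraries: without control_TNF number 3 it was 0.03 and 0.00 in the large and small subunit, and without control number 3 it was 0.61 in both.

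In SoxC_KO cells most members lay below 0 with TNF, again with none called. Rplp0 had 17106, 16677 and 35528 normalized counts without TNF and 16973, 17199 and 19415 with it, a log2 difference of -0.28 (SE 0.36, limma adjusted p = 0.855). Numbers 1 and 2 were close between the groups and number 3 was far lower with TNF. Rpl11 had 3127, 2388 and 6219 without and 1923, 2611 and 3601 with TNF, the lowest difference of the members at -0.45 (SE 0.47, adjusted p = 0.838). Rps10, a small-subunit protein near the messenger RNA entry, was lowest of its subunit at -0.38 (SE 0.44). Rps29, a small zinc-binding protein of the small subunit's head, was highest at 0.27 (SE 0.36). It had 1053, 1344 and 1995 without TNF and 1181, 1571 and 2658 with it, higher in each number and with overlapping ranges.

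The medians were -0.14 for the large subunit and -0.13 for the small, with 65 of 80 values below 0. limma called 0 of 80 (0.292% of all genes). At an unadjusted p under 0.05 there were 0 members (7.38% of all genes). No member's groups were free of overlap (6.43% of all genes higher and 6.40% lower). With the number as a block, 0 were called (2.78% of all genes) and 1 had an unadjusted p under 0.05 (21.0%). Without SoxC_KO number 3 the medians changed sign, to 0.15 and 0.17, and without SoxC_KO_TNF number 3 they were -0.31 and -0.27.

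SoxC_KO minus control, without TNF, had medians of 0.17 and 0.19, with 77 of 80 members above 0. Rpsa, a small-subunit protein also known as the laminin receptor, had 18533, 18184 and 33521 normalized counts in control and 20847, 21640 and 41413 in SoxC_KO. Each SoxC_KO library was above the control library of its number, the ranges overlapped, and the log2 difference was 0.24 (SE 0.35, limma adjusted p = 0.999). Within numbers 1, 2 and 3 the large-subunit medians were 0.21, 0.18 and 0.18, and 73, 78 and 58 of 80 members were above 0, beside 48.3%, 47.8% and 49.7% of all genes. limma called 0 of 80 members and 0 of 18139 genes (0%). At an unadjusted p under 0.05 there were 0 members (0.970% of genes), and 0 with the block (4.55% of genes), where the smallest adjusted p of a member was 0.653. No member's groups failed to overlap (2.39% of all genes higher, 1.98% lower). Without SoxC_KO number 3 the medians were -0.11 and -0.10, and without control number 3 they were 0.48 and 0.49.

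SoxC_KO_TNF minus control_TNF had medians of -0.26 and -0.24, with 77 of 80 members below 0. Rpsa had 26648, 17381 and 39491 in control_TNF and 20610, 21084 and 24600 in SoxC_KO_TNF. Number 2 was higher and numbers 1 and 3 lower in SoxC_KO_TNF, with a log2 difference of -0.26 (SE 0.35, limma adjusted p = 0.997). The lowest member was Rpl11 at -0.52 (SE 0.47) and the highest Rpl32l at 0.22 (SE 0.44). limma called 0 of 80 members and 0% of genes. At an unadjusted p under 0.05 there were 0 members (1.28% of genes), and 3 with the block (6.40% of genes). No member's groups were free of overlap (2.82% of all genes higher, 2.34% lower). The medians were 0.00 and 0.03 without control_TNF number 3 and -0.57 and -0.54 without control_TNF number 2.

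These differences were not alike from number to number. With TNF in control cells the large-subunit median was 0.64, 0.05 and 0.18 within numbers 1, 2 and 3, and in SoxC_KO cells -0.14, 0.09 and -0.46. Between SoxC_KO_TNF and control_TNF it was -0.60, 0.25 and -0.45, and all 80 members were higher in number 2. The small subunit lay within 0.1 of the large in every one of these pairs. Without the libraries numbered 3 and control_TNF number 1 (an alternative chosen after the values were seen), the large-subunit and small-subunit medians were 0.01 and 0.00 for TNF in control cells, -0.03 and -0.02 for TNF in SoxC_KO cells, 0.19 and 0.20 for SoxC_KO without TNF, and 0.15 and 0.20 for SoxC_KO with TNF. The last of these changed sign. Both SoxC_KO differences then had 78 of 80 members above 0, with 28 members at an unadjusted p under 0.05 without TNF (5.97% of all genes) and 16 with TNF (4.99%), and 0 called by limma at an adjusted p under 0.05. The control_TNF group is 1 library in that fit and was assumed to vary like the other groups. The libraries left out were those in which the members held the largest shares of the counts. The differences of that fit therefore come from libraries picked by member level and cannot decide whether SoxC_KO changes the members. With only the libraries numbered 3 left out, 78 of 80 members were above 0 for SoxC_KO without TNF and 9 with TNF.

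**Figure D3:**
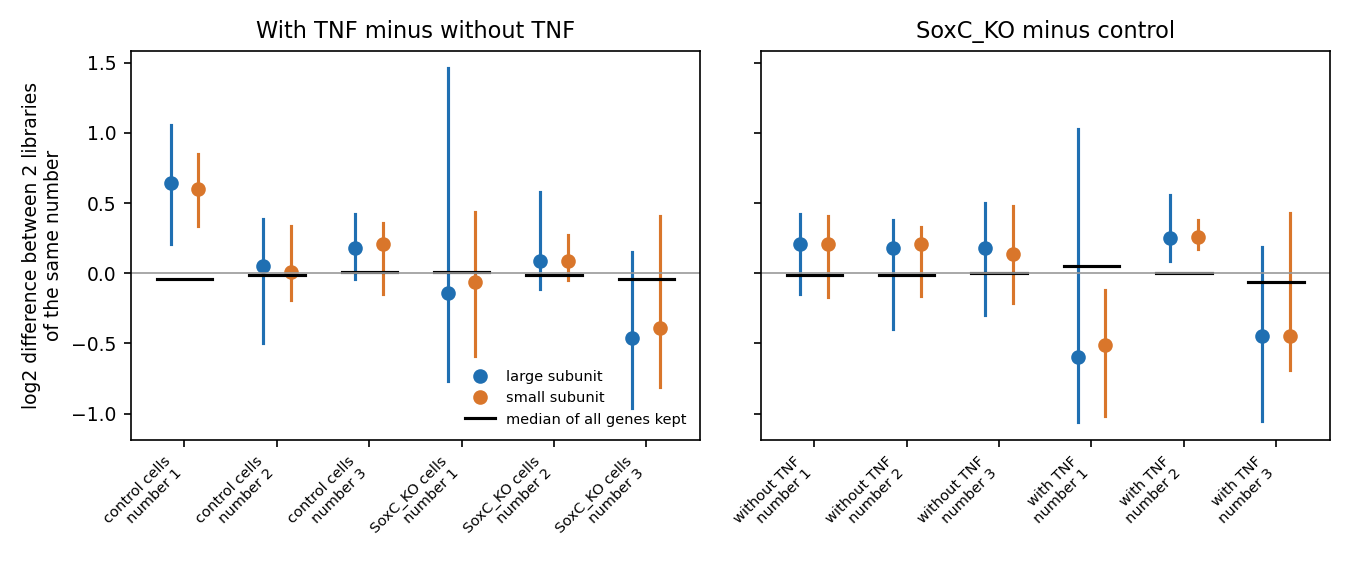
log2 differences between libraries of the same number, with TNF minus without (left) and SoxC_KO minus control (right), where dots are medians of the 48 large-subunit (blue) and 32 small-subunit (orange) genes, coloured bars their full ranges and black bars the median of all genes kept. SoxC_KO minus control without TNF is near 0.2 in each number (0.21, 0.18 and 0.18 for the large subunit), while the other 3 comparisons change sign or size between numbers.

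The interaction, the TNF difference in SoxC_KO cells minus that in control cells, had medians of -0.48 and -0.41 with median SEs of 0.53 and 0.52. limma called 0 of 80 members and 0% of genes. At an unadjusted p under 0.05 there were 0 members (1.51% of genes). With the block, 0 were called and 21 of 80 had an unadjusted p under 0.05, beside 17.2% of all genes, with a smallest adjusted p of 0.284. Rpl11 was lowest at -0.91 (SE 0.67, adjusted p = 0.884), then Rps10 at -0.79 (SE 0.62), Rpl18 at -0.73 (SE 0.60), and Rps14 and Rps19, both lost or mutated in human anemias of failed ribosome assembly, at -0.72 (SE 0.64 and 0.72). Rpl32l was highest at 0.25 (SE 0.62). Without the libraries numbered 3 and control_TNF number 1 the medians were -0.04 and 0.02. Averaged over both genotypes, the TNF medians were 0.06 and 0.06. Averaged over both treatments, the SoxC_KO medians were -0.04 and -0.01, with 20 of 80 members above 0. limma called 0 members in either (1.17% and 0% of all genes), with 0 members at an unadjusted p under 0.05 (8.17% and 0.772%). With the block, 0 members were called in either (5.19% and 0.00551% of all genes), and 0 had an unadjusted p under 0.05 (15.7% and 1.62%). The average SoxC_KO effect moved with the libraries used. Without the libraries numbered 3 and control_TNF number 1 its medians were 0.18 and 0.21, all 80 members were above 0, 43 had an unadjusted p under 0.05 (8.93% of all genes), and limma called 0. Without the libraries numbered 3 alone, its medians were 0.03 in both subunits, 51 members were above 0 and 0 had an unadjusted p under 0.05 (1.69% of all genes). The position of all 80 members above 0 thus depended on also leaving out control_TNF number 1, a library picked for its high member level. It cannot decide whether SoxC_KO changes the members.

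The title number separated the members where the groups did not. This comparison, number 3 against the mean of numbers 1 and 2 with the group kept in the model, was chosen with the position of these libraries known. Rps19 (mm10 chr7:24884371-24889806), which is needed to mature the small subunit, had 5838, 5296 and 13114 normalized counts in control numbers 1, 2 and 3. It had 10272, 5721 and 15693 in control_TNF, 7230, 6434 and 17351 in SoxC_KO, and 5057, 6885 and 11867 in SoxC_KO_TNF. All 4 libraries numbered 3 lay above all 8 others, and the log2 difference of 1.16 (SE 0.15, limma adjusted p = 5.83e-05, 2.23-fold) was the highest of the members.

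Of the 80 members, 79 were called and all of these were higher in number 3, 47 of 48 in the large subunit and 32 of 32 in the small. This is read against a wide background, since 56.2% of all genes were called and 25.9% were called higher. At an unadjusted p under 0.05 the counts were 79 members and 61.3% of all genes. The median log2 difference was 0.78 (1.71-fold) in the large subunit and 0.79 (1.73-fold) in the small, against -0.06 for all genes. Of the genes called, 4693 of 10187 were higher in number 3. With each library centred on its median the split was 5688 of 10192 and the median of all genes 0.08. The members' medians were then 0.92 and 0.93, with 79 called. All 4 libraries numbered 3 lay above all 8 others for 41 members (13.8% of all genes). Without control_TNF number 1 they did so for 76 (18.8% of all genes), the others being Rps4l, Rps13, Rpl29 and Rpl32l.

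In the stalk, where the elongation factors dock, Rplp1 (mm10 chr9:61913284-61914542) had 11789, 10910 and 23447 normalized counts in control numbers 1, 2 and 3, and 20512, 11949 and 28554 in control_TNF. It had 13943, 13985 and 30302 in SoxC_KO and 12223, 14301 and 20037 in SoxC_KO_TNF. Number 3 was the highest of each group, and control_TNF number 1 exceeded SoxC_KO_TNF number 3. The log2 difference was 0.91 (SE 0.14, limma adjusted p = 0.000182). Its partner Rplp2 also differed by 0.91, Rplp0 by 0.74 and Rpl12, at the stalk's base, by 0.55 (SE 0.12, adjusted p = 0.00262). All 4 were called higher, as were 79 of all 80 members and 25.9% of all genes.

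Both protein partners of the 5S ribosomal RNA were higher in number 3. Rpl11 differed by 1.02 (SE 0.15, limma adjusted p = 0.000188, 2.03-fold), with 1897 to 3978 in numbers 1 and 2 and 3601 to 6219 in number 3. Rpl5 differed by 0.74 (SE 0.12, adjusted p = 0.000313), with 3780 to 5832 in numbers 1 and 2 and 6067 to 8416 in number 3. The ranges overlapped for Rpl11, through control_TNF number 1, and not for Rpl5.

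Members with known roles outside the ribosome were also called higher, like 79 of all 80 members and 25.9% of all genes. Rps3, which has a DNA repair activity and binds the NF-kB subunit p65, had 11637, 11014 and 23583 normalized counts in control numbers 1, 2 and 3 and 20136, 11094 and 30311 in control_TNF. It had 14050, 13526 and 30395 in SoxC_KO and 11559, 13201 and 19835 in SoxC_KO_TNF. Only control_TNF number 1 among numbers 1 and 2 reached the level of a library numbered 3, and the log2 difference was 0.98 (SE 0.14, limma adjusted p = 0.000119). Rpl13a, which silences inflammatory messenger RNAs in the GAIT complex, differed by 0.98 (SE 0.15). Rpsa and Rps27a, which is made as a fusion with ubiquitin, both differed by 0.74.

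The 10 large-subunit members with the smallest p were Rpl9, Rpl19, Rpl36, Rpl32, Rpl35a, Rpl22, Rpl14, Rpl37a, Rpl8 and Rpl15, with log2 differences from 0.71 (Rpl15) to 1.10 (Rpl19). Rpl19, which forms a bridge to the small subunit, rose 2.15-fold (adjusted p = 3.24e-05) and Rpl9 2.12-fold (adjusted p = 2.31e-05). In the small subunit Rps27l, Rps18, Rps19, Rps9, Rps3 and Rps28 were among those with the smallest p, from 0.73 (Rps28) to 1.16 (Rps19). All 8 members at the exit of the peptide tunnel were called, from Rpl23a (0.49), which docks factors that receive the growing chain, to Rpl19. The same held for 79 of all 80 members, and 25.9% of all genes were called higher. Rpl4, which lines the tunnel and had the highest mean count of the large subunit, was called as well, at 0.51. Rps2, highest of the small subunit per kilobase, was called at 0.91.

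The least raised members were Rpl29 (0.34, SE 0.13, limma adjusted p = 0.0422), Rps15a (0.40) and Rpl6 (0.41). Rpl29 (mm10 chr9:106429454-106431568) had 4624, 4952, 4627 and 3263 normalized counts in the libraries numbered 3 (control, control_TNF, SoxC_KO and SoxC_KO_TNF) and 2925 to 4387 in the others. SoxC_KO_TNF number 3 was thus within the range of numbers 1 and 2. Rpl29 was called in 7 of 20 settings only. Rpl32l was not called (0.49, SE 0.29, adjusted p = 0.171), and its highest value, 92.3, was in SoxC_KO_TNF number 1.

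In 3 of the paralogue pairs both copies were called higher in number 3, as were 79 of all 80 members and 25.9% of all genes. Rpl39 differed by 0.87 and Rpl39l by 1.03, the latter on 15.4 to 45.8 normalized counts in numbers 1 and 2 and 31.4 to 65.9 in number 3. Rps4x differed by 0.46 and Rps4l by 0.53, and Rps27 by 0.86 (SE 0.14) and Rps27l by 1.07 (SE 0.13). Rpl3, which shapes the peptidyl transferase centre, differed by 0.75, and Rpl10, a late-joining large-subunit protein, by 0.56. Rpl22, an RNA-binding protein with roles in lymphocyte development, differed by 0.91 (SE 0.12). Differences within and between pairs were not tested.

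**Figure D4:**
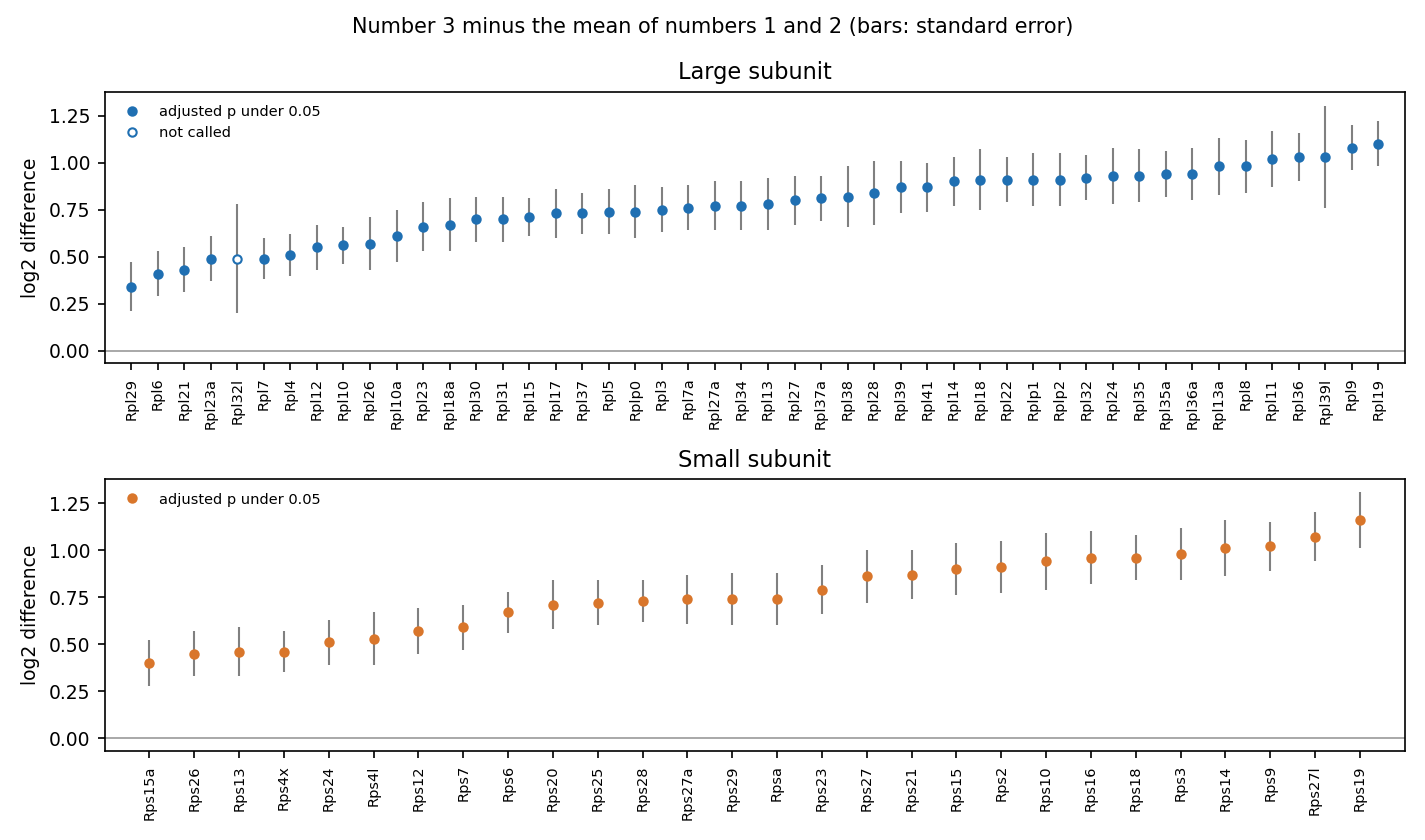
log2 difference between number 3 and the mean of numbers 1 and 2 for 76 of the 80 members, large subunit above and small subunit below, with bars of 1 standard error, filled circles at an adjusted p under 0.05 and an open circle otherwise. All values shown lie above 0, from Rpl29 (0.34) to Rps19 (1.16), and Rpl32l is the only open circle.

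The size of the difference varied with the group. The large-subunit median of number 3 minus the mean of numbers 1 and 2 was 0.95 in control and 0.80 in control_TNF, then 0.96 in SoxC_KO and 0.52 in SoxC_KO_TNF, and the small-subunit medians were 0.96, 0.78, 0.92 and 0.51. All 80 members were above 0 in the first 3 groups and 78 in SoxC_KO_TNF. Numbers 1 and 2 differed less, with large-subunit medians of number 2 minus number 1 of -0.04, -0.65, -0.07 and 0.16 in the same order. In control_TNF all 80 members were lower in number 2 than in number 1. Whether the groups differ in these medians was not tested.

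Ribosomal proteins that the symbol rule leaves out behaved in the same direction. Of 11 such genes 9 passed the filter, and all 9 were called higher in number 3 (25.9% of all genes), with a median of 0.98. Rpl36al, a copy of Rpl36a, differed by 1.16 (SE 0.17, limma adjusted p = 0.000155). It had 2884, 3099, 2909 and 2948 normalized counts in the libraries numbered 3 and 891 to 2743 in the others, with no overlap and with control_TNF number 1 the highest of the others. Rpl7l1 differed by 0.87 and Rps3a1 by 0.57. In the mitochondrial ribosome, which is assembled apart from the cytosolic one, 72 of 78 proteins were called higher and 0 lower. The shares of all genes were 25.9% and 30.3%. The median of these 78 was 0.77, with Mrpl27 highest at 1.29.

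Counts for the translation machinery beyond the ribosome are read beside all genes, of which 25.9% were called higher in number 3 and 30.3% lower. Among 9 elongation genes 8 were called higher, including Eif5a (0.87) and Eef1b2 (0.73), and Eef2k, the kinase that inhibits Eef2, was not (0.05). Among 29 initiation genes 13 were called higher and 8 lower, the latter near the share of all genes. Eif6, which keeps the subunits apart until the large one is mature, differed by 1.09, and Eif4g2 and Eif3a, initiation factors, by -1.01 and -0.93. Other TOP transcripts were called higher in 6 of 13 cases, led by Snhg12 (1.08) and Cox7c (0.85), with Npm1 at -0.17 and Gas5 at 0.17. Of the mTOR pathway and its controls of TOP translation, 4 of 16 were called higher and 4 lower, both near or below the shares of all genes. The highest was Maf1 (0.98), a repressor of RNA polymerase III. The 4 lower were Larp1, which binds the TOP tract (-0.97), Mtor (-0.80), Myc (-0.64) and Rps6kb1 (-0.46).

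Genes of ribosome assembly were called higher in 19 of 36 cases and lower in 4, against 25.9% and 30.3% of all genes. Nip7, Mrto4 and Nop16 differed by 1.09, 1.03 and 1.02, and Heatr1 by -1.10. Of 15 genes for RNA polymerase I and its factors, 7 were called higher, led by Polr1c (0.84), and 3 lower, down to Polr1a (-0.74), its largest subunit, with the lower count below the share of all genes. In the 7 group comparisons, limma called 0 of the 1435 values of these 8 lists (ribosomal proteins outside the rule, elongation, initiation, TOP, mTOR, assembly, polymerase I and mitochondrial ribosome), and 12 had an unadjusted p under 0.05. Among all genes, 0% to 1.17% were called in each of these comparisons and 0.772% to 8.17% had an unadjusted p under 0.05. With the block, 88 of the 1435 values had an unadjusted p under 0.05, beside 1.62% to 21.0% of all genes by comparison. The block called 3, all for the average TNF effect (5.19% of all genes) and all lower: Eef2k (-0.52), Vim (-0.47) and Rps6ka1 (-0.49).

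Transcript length and base composition moved with the same comparison. Over 18112 genes the log2 difference of number 3 had a Pearson r of -0.46 with log2 transcript length and 0.44 with GC content, and over the 80 members -0.23 and 0.25. The genes of a library share its depth and scaling, and no p is given. The members' transcripts had a median length of 869 bases, against 2721 for all genes, and a median GC content of 51.8%, against 49.8%. Among transcripts of 500 to 1000 bases the median difference was 0.51 for all genes, of which 44.9% were called higher, and 0.81 for the 41 members of that length. Short transcripts were also split by GC content. Among transcripts under 1000 bases with a GC content of 55 to 60%, the median was 0.77 for all genes, of which 57.8% were called higher, and 0.83 for 14 members, the narrowest gap of these bins. At 50 to 55% it was 0.60 (48.1% called higher) and 0.86 for 21 members, and at 45 to 50% 0.38 (36.6%) and 0.74 for 13 members. At 5000 bases and above it was -0.88 for all genes, and 0.40 for the 1 member, Rps15a. Lengths are those of 1 annotated transcript per gene, the longest where several ranked alike (5179 bases for Rps15a and 3706 for Rps20). Which transcript these cells express was not tested, so the long bins may hold no long ribosomal protein transcript. The part of length and composition in the members' difference was not tested.

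**Figure D5:**
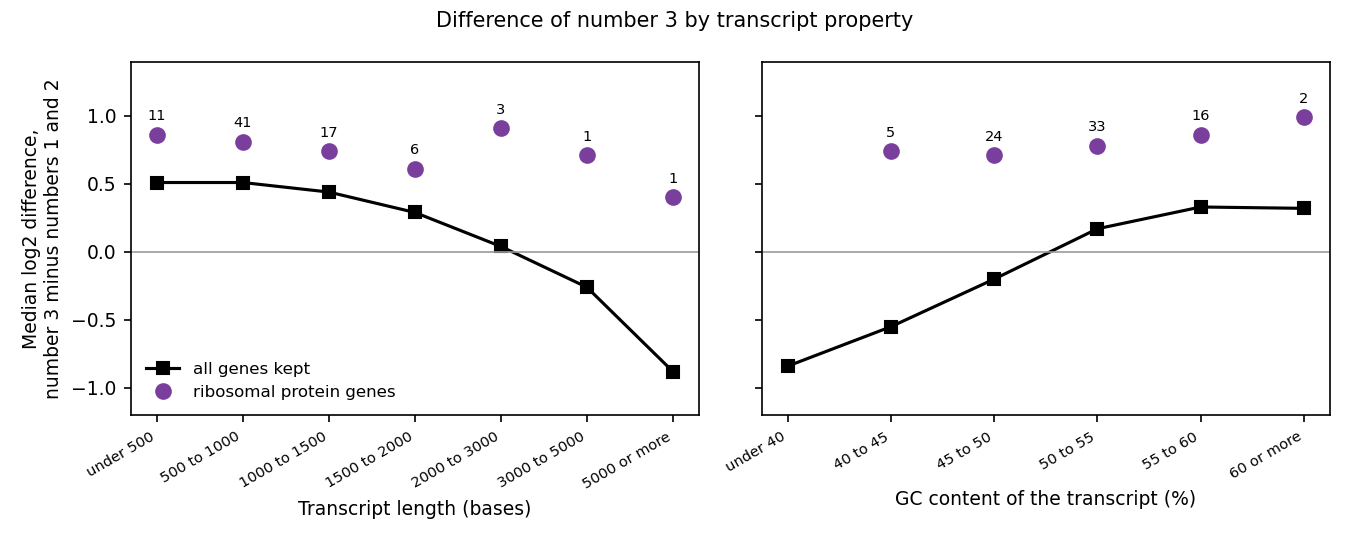
Median log2 difference between number 3 and the mean of numbers 1 and 2 in bins of transcript length (left) and GC content (right), for all genes kept (black squares) and for the ribosomal protein genes (purple circles, with the number of members in each bin). All genes go from 0.51 under 500 bases to -0.88 at 5000 bases or more, and the members lie above the black line in every bin that holds one. Lengths are those of 1 annotated transcript per gene, and the bins from 3000 bases up hold 1 member each, Rps20 and Rps15a.

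Marker sums also differed by number. The 13 synoviocyte markers summed to 209957 to 395434 normalized counts in the libraries numbered 3 and 405555 to 570515 in the others. Of these markers 8 were called lower in number 3, among them the collagen genes Col1a1 (-1.18), Col1a2 (-1.03) and Col3a1 (-1.08), which make up most of the sum. Prg4 (lubricin) was lowest at -1.46, with 3540 to 8450 normalized counts against 9853 to 18346. Thy1 was called higher (0.34), and Vim (-0.11), Pdpn (0.05), Dcn (0.12) and Fap (-0.44) were not called. The 7 macrophage markers summed to 2800 to 3368 against 1084 to 1512, mostly Lyz2 (2172 to 2438 against 677 to 1014). The 5 neutrophil markers summed to 1401 to 2374 against 474 to 1426. Nearly all of this was Camp (1175 to 1920 against 429 to 1242) and S100a8 (226 to 454 against 43.1 to 180), while S100a9, Ngp and Ltf were at 0 to 5.18 in every library. The 4 adipocyte markers summed to 1010 to 1131 against 519 to 942. Fabp4 made up most of that sum (992 to 1119 against 516 to 928), while Plin1, Adipoq and Cidec were at 0 to 20.1 in every library. Ptprc, the pan-leukocyte marker, was at 0 to 19.1 in the libraries numbered 3 and 3.32 to 10.4 in the others. No marker was at 0 in all libraries. The sources used here do not say what the title number stands for, and the part of cell makeup in the members' difference was not tested.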

How the data were processed

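The deposited table holds 1 log2 value per gene and library, normalized by the authors per the file headers. The submitters' processing notes name mm10 and DESeq, and the sources used here do not give the aligner, annotation or use of strand. The design assumed linear values, so the log2 values were first turned back to linear counts (a listed 0 stayed 0) and analysed as log2(normalized count + 1), which understates changes of low genes. limma 3.58.1 (R 4.3.3, statmod 1.5.0) was fitted to 12 libraries and 18139 genes (10 or more normalized counts in 3 or more libraries) with 1 mean per group, an intensity trend and Benjamini-Hochberg adjustment at 0.05. For the title numbers, number was added to the group means. The script was tested on simulated data. Tables and figures used Python 3.11.15, pandas 2.3.3, numpy 2.4.6, scipy 1.17.1 and matplotlib 3.10.9. Levels per kb, lengths and GC content used 1 annotated transcript per gene, the longest where several ranked alike, and promoters came from RefSeq.

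No 2 libraries were identical, and depth could only be estimated (8.14 to 13.7 M read pairs). Pairing was checked on correlations of same-numbered libraries after removal of group means. These were 0.103, 0.550 and 0.715 (control with control_TNF), 0.340, 0.148 and 0.501 (SoxC_KO with SoxC_KO_TNF), 0.457, 0.515 and 0.707 (control with SoxC_KO) and 0.054, 0.189 and 0.526 (control_TNF with SoxC_KO_TNF). At the cutoff of 0.1 the numbers pair the libraries in the first 3 comparisons and not in the last. The difference of number 3 in all groups raises these values by itself.

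The members, gene lists and tests were chosen with earlier results of these data known. Named by rule were the stalk, 5S and paralogue members, Rps3, Rpl13a, Rpsa, Rps27a, and the 3 highest members per subunit. In each comparison the rule adds called members, up to 10 per direction and subunit by smallest p, or else the 3 highest and 3 lowest, some of which are left out for length, and a few genes are counted but not reported by name here. Each other list adds up to 4 called genes per direction. Rpl6, Rps15a, Rpl29, Rpl23a and list extremes were named after their values were seen. Alternatives covered pseudocount, filter, scaling, trend, block and omitted libraries.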

Additional observations from a re-analysis of the deposited data

Results flagged for a closer look

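In Rps3 and Rpl15 the TNF difference was above 0 in control cells and below 0 in SoxC_KO cells for every title number. Rps3 had log2 differences of 0.79, 0.01 and 0.36 in control numbers 1, 2 and 3 and -0.28, -0.04 and -0.62 in SoxC_KO, with an interaction of -0.70. Rpl15, a large-subunit protein, had 0.37, 0.06 and 0.15 and then -0.08, -0.10 and -0.37, with an interaction of -0.38. Several of these values are near 0, and the opposite signs themselves were not tested. The interaction was tested with limma and was called for neither gene (adjusted p = 0.884 for each), and libraries of one number are counted as pairs here only by their titles.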

How the results depend on the processing

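In the 7 group comparisons, 0 members were called under each alternative run. Medians by library left out (large, then small subunit) ranged from 0.03 to 0.61 and 0.00 to 0.61 for TNF in control cells, -0.31 to 0.15 and -0.27 to 0.17 for TNF in SoxC_KO cells, -0.11 to 0.48 and -0.10 to 0.49 for SoxC_KO without TNF, -0.57 to 0.00 and -0.54 to 0.03 for SoxC_KO with TNF, -0.78 to -0.14 and -0.69 to -0.12 for the interaction, -0.07 to 0.23 in both subunits for the average TNF effect, and -0.19 to 0.11 and -0.17 to 0.15 for the average SoxC_KO effect. The replicate block, with the title number in the model, left 0 members called in each group comparison and so changed no call among the members. In the number comparison, 73 (without control replicate 3) to 80 members (without SoxC_KO_TNF replicate 3) were called with 1 library left out, and 78 or 79 under the other settings. Among all genes, 8653 of 18040 were called without control replicate 3 and 10271 of 18056 without SoxC_KO_TNF replicate 3. Of these, 3916 and 4780 were higher. All 20 settings called 73 of the 80. Rpl21, Rpl39l and Rps15a were lost without control number 3, Rpl6 and Rps13 also without control_TNF number 3. Rpl29 was called in 7 settings and Rpl32l in 3. Leaving out the 2 libraries with liver transcripts gave medians of 0.71 and 0.73, with 79 called, beside 8860 of 17785 genes (4132 higher). What size of group difference these libraries could detect was not tested. Depth limits low members such as Rpl39l and Rpl32l.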
